A study of Mus musculus with 12 samples.

Results

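Amino acid transporters move amino acids across cell membranes, and the kidney uses them to recover filtered amino acids from the urine. The genes described here are those whose symbols place them in the solute carrier families Slc1, Slc3, Slc6, Slc7, Slc36, Slc38 and Slc43, chosen by symbol alone. They numbered 62 of the 55471 genes in the deposited table, and 48 of the 62 had enough reads to be tested. They were measured by RNA-seq in 12 left kidneys of C57/BL6 mice in 4 groups: Sprr2f knockout at day 5 (n = 3) and day 0 (n = 4), and wild type at day 5 (n = 3) and day 0 (n = 2). All kidneys carry the treatment label UUO (unilateral ureteral obstruction), a clamp on the ureter of that kidney that stops the outflow of urine, and day 5 kidneys had been obstructed for 5 days. An age of 8 to 12 weeks is given for the knockout mice. The labels do not say whether day 0 kidneys were sham-operated, how the Sprr2f allele was made, or the sex of each mouse. They name separate samples only, so the spread behind each p-value is that between samples and may be technical.

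In the proximal tubule, apical carriers take amino acids up from the filtrate with sodium or by exchange, and basolateral carriers pass them on to the blood. Several are heterodimers: a heavy subunit of family Slc3 brings a light subunit of family Slc7 to the membrane. Other members serve uptake in dividing or stressed cells, export from lysosomes, transport of osmolytes, or the clearing of neurotransmitters.

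The promoters of 4 members are shown because they belong to pairs whose transcripts are compared below: Slc3a1 and Slc7a9, the subunits of the cystine carrier, and Slc6a20b and Slc6a20a, neighbouring genes of a single family. Each window runs 5′ to 3′ on the gene's strand from 250 bases before to 50 after a RefSeq transcript start (GRCm38.p6). Capitals mark matches, on either strand, to 3 motifs searched by script: GTTAAT (an HNF1 half-site), CAAAGTCCA (an HNF4 site) and TGATGNAA (a C/EBP-ATF element). HNF1 and HNF4 factors are known regulators of kidney epithelial genes, and C/EBP-ATF dimers of the response to amino acid shortage. The windows are Slc3a1 at chr17:85028097-85028396 on the plus strand, Slc7a9 at chr7:35448842-35449141 on the plus strand, Slc6a20b at chr9:123632489-123632788 on the minus strand and Slc6a20a at chr9:123678783-123679082 on the minus strand.
Slc3a1: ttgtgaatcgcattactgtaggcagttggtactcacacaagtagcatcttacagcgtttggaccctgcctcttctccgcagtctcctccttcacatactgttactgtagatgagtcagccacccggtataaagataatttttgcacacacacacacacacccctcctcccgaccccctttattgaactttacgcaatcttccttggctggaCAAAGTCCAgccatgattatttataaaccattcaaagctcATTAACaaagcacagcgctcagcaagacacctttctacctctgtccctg
Slc7a9: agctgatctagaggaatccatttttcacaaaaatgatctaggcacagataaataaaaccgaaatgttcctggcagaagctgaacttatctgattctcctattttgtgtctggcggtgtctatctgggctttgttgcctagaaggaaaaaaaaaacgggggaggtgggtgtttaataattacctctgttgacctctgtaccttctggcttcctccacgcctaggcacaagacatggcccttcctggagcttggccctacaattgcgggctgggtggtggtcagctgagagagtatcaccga
Slc6a20b: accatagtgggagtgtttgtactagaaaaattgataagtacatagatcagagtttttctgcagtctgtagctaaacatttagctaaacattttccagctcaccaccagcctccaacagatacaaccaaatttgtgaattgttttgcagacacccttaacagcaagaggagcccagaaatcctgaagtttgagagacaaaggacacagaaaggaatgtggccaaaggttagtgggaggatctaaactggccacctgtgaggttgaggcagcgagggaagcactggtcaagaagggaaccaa
Slc6a20a: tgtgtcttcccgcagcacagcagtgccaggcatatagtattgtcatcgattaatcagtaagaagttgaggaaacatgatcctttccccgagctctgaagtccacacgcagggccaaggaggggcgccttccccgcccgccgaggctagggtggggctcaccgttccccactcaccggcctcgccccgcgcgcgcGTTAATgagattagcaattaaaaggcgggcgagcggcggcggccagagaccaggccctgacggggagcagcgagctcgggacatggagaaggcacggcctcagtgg
The Slc3a1 window held the HNF4 site at -39 to -31 and an HNF1 half-site on the minus strand at 2 to 7, counted from the transcript start. Slc6a20a held an HNF1 half-site at -56 to -51. The windows of Slc7a9 and Slc6a20b held none of the motifs. A window was found for 44 of the 62 members. These members had 65 windows. GTTAAT stood in 7 of the 65 and in 7.10% of all 32851 windows, CAAAGTCCA in 1 and in 0.475%, and TGATGNAA in 4 and in 3.97%. No motif overlapped another in the windows printed. A match is a description of letters, not a site shown to be bound.

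Each library held 16567256 to 19398882 reads counted to genes. Sprr2f, the gene named in the knockout, had 0, 2.17 and 4.07 CPM in knockout kidneys at day 5 and 0 to 0.262 CPM in those at day 0, against 26.9 to 58.8 CPM in wild type kidneys at day 5 and 0 and 0.106 CPM in those at day 0. The values of 2.17 and 4.07 CPM were 39 and 76 reads, whose source was not tested. At day 0 the levels of Sprr2f do not tell the genotypes apart. Female mice are named in the series title, but 7 libraries held Y-linked transcripts in place of Xist: replicate 2 of the knockout at day 5, all 4 knockout libraries at day 0, replicate 3 of the wild type at day 5 and replicate 1 of the wild type at day 0. The other 5 held Xist. This split differs most in the knockout comparison of day 5 with day 0, so several results that move with it are given with and without it. The 8 proximal tubule markers, such as Lrp2 and Slc34a1, summed to 3543 to 5489 scaled CPM in knockout kidneys at day 5 and 14880 to 16430 at day 0. The sum in wild type kidneys was 3198 to 3893 at day 5 and 14050 to 14450 at day 0. No marker was at 0 in any group.

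All levels below are scaled CPM (the deposited CPM, which are reads scaled to library depth, divided by the library's TMM factor), and changes are log2 fold changes ± SE from limma fitted over all 18093 tested genes, called at a Benjamini-Hochberg adjusted p under 0.05. Summed over the 48 tested members, the level was 2903 to 3481 in knockout kidneys at day 5, against 5383 to 5633 at day 0. In wild type kidneys it was 2859 to 3212 at day 5, against 5604 to 6338 at day 0. In each genotype the day 5 libraries lay below every day 0 library. Slc7a13, whose level follows the split by Y-linked transcripts and Xist as described below, is a large part of the sum. It made up 16.6% to 18.8% of the members' summed level in knockout libraries at day 0, and 0.0864%, 3.88% and 0.0787% at day 5. In wild type its share was 16.7% and 0.107% at day 0, and 0.0516%, 0.110% and 4.15% at day 5. In a whole kidney, fewer cells of a type and less RNA per cell cannot be told apart.

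Obstruction changed transporters in both directions in the knockout: 16 of 48 tested members were higher at day 5, 16 were lower and 16 were not called. The called share was 66.7% of members, where 54.8% of all tested genes were called (29.4% higher and 25.4% lower). Without adjustment, 33 members had a p under 0.05 in knockout (59.7% of all genes) and 30 in wild type (53.6%). In knockout 14 members lay wholly above (29.5% of all genes) and 16 wholly below (25.6%) at day 5, and in wild type 16 wholly above (34.4%) and 16 wholly below (30.7%). The median member in knockout changed by 0.06 and the median gene by 0.07. In wild type kidneys 10 members were higher, 17 were lower and 21 were not called (56.2%, where 47.1% of all genes were called, 24.5% higher and 22.6% lower), with a median of -0.10 for members and 0.04 for all genes. The members called higher in both genotypes numbered 9, those called lower in both 14, and 0 were called in opposite directions (21.2%, 19.2% and 0.0387% of all genes), each comparison having its own day 0 kidneys. Scaling by library size alone raised the median of all genes to 0.45 in knockout and 0.40 in wild type, and the member calls became 23 higher and 8 lower in knockout (74.2% higher, against 50% with the TMM factors) and 17 higher and 13 lower in wild type (56.7%, against 37%). Changes below are relative to the TMM factors, and counts of role groups and gene lists stand against the shares of all genes given here. Of the 32 members called in knockout, 31 kept their sign in the Y-linked libraries alone, and Slc7a15 was not tested there. All 27 called in wild type kept their sign in the Y-linked and in the Xist libraries alone. The Y-linked fit holds a single day 5 library of each genotype and a single wild type library at day 0. The Xist fit holds a single wild type library at day 0. These fits reuse the libraries behind the calls, so kept signs are not independent support. The share of all genes that kept their sign was not measured.

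**Figure D1:**
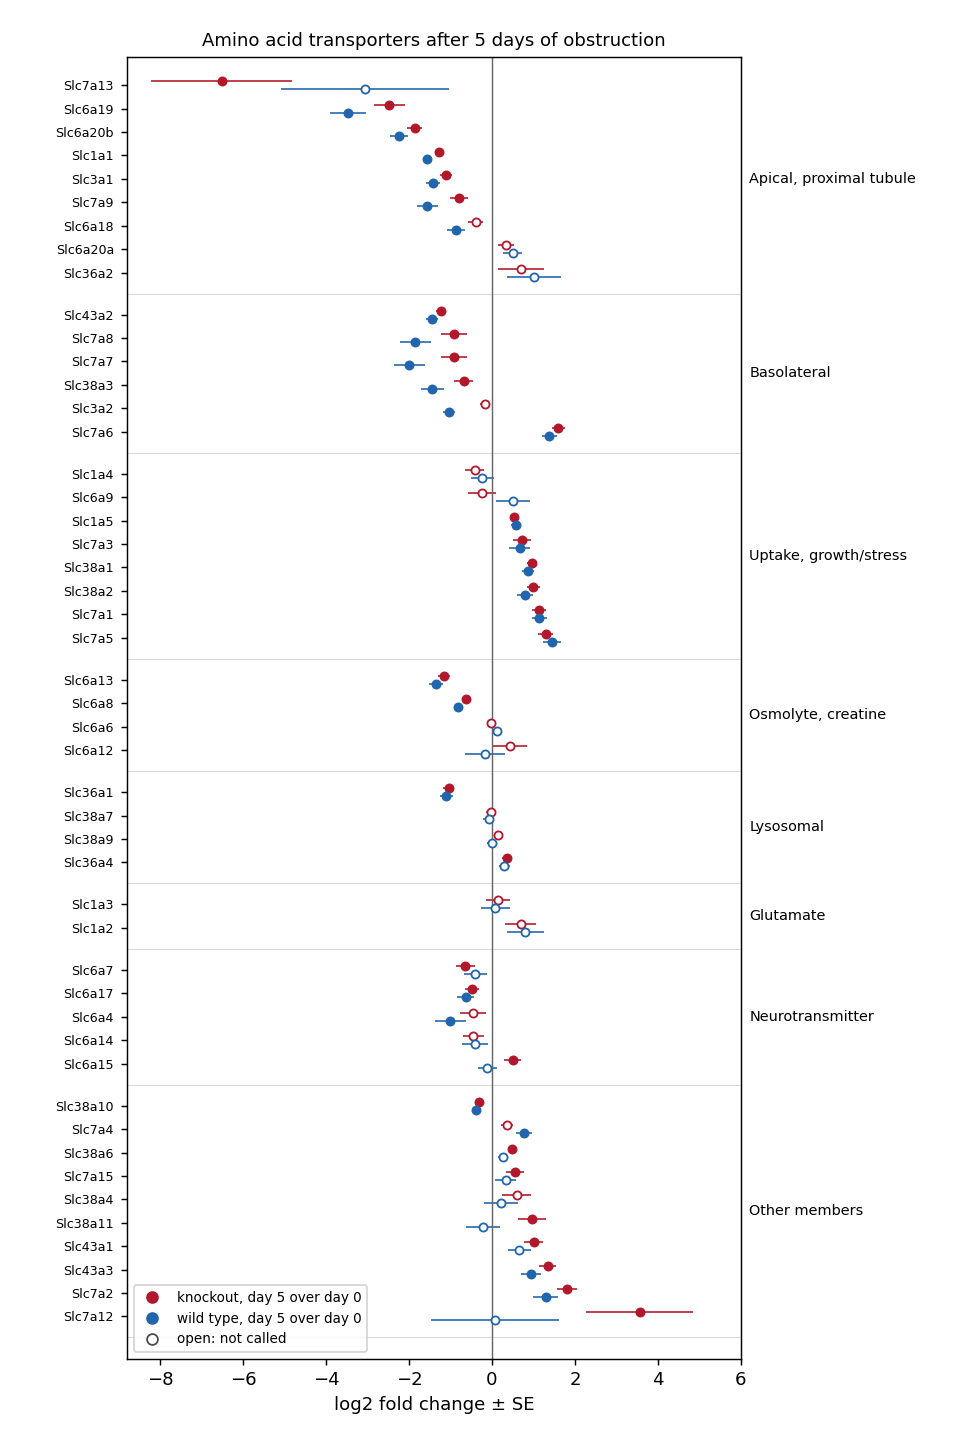
Log2 fold change ± SE of each of the 48 tested members at day 5 over day 0 (horizontal axis), grouped by role; red points are knockout and blue points wild type, filled where called and open where not. Apical and basolateral carriers of the proximal tubule lie mostly left of 0 and the uptake carriers of dividing or stressed cells mostly right of it.

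Most apical carriers of the proximal tubule fell: 6 of the 9 members were lower in knockout (median -1.11) and 6 in wild type (median -1.56), and 0 were higher in either genotype. Slc3a1 (chromosome 17, 85028376 to 85064236, GRCm38), the heavy subunit rBAT of the cystine and dibasic amino acid carrier, had 196, 133 and 191 scaled CPM in knockout kidneys at day 5, against 379.8, 369.8, 353 and 378 at day 0. Wild type kidneys held 143, 189 and 159 at day 5, against 383 and 495 at day 0. No day 5 library reached the lowest day 0 library of its genotype, and the change was -1.11 ± 0.14 in knockout (limma adjusted p = 2.48e-05) and -1.42 ± 0.17 in wild type (adjusted p = 1.92e-05).

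Its light subunit gene Slc7a9 (chromosome 7, 35448796 to 35466036), encoding b0,+AT, stood at 69.1, 52.9 and 82.9 scaled CPM in knockout kidneys at day 5 and 117, 103, 119.8 and 131 at day 0. The wild type levels were 72.1, 64.5 and 39.9 at day 5 and 132 and 216 at day 0. Again the groups did not overlap, with changes of -0.80 ± 0.21 in knockout and -1.56 ± 0.26 in wild type (limma adjusted p = 0.00711 and 0.000289). Per kilobase of exon, Slc7a9 was 0.299, 0.337 and 0.369 of Slc3a1 in knockout kidneys at day 5 and 0.236 to 0.294 at day 0. The ratio was 0.428, 0.289 and 0.213 in wild type kidneys at day 5 and 0.292 and 0.369 at day 0. Both subunits were lower at day 5. In knockout the ratio of every day 5 library lay above that of every day 0 library. In wild type the ratio of day 5 libraries lay on both sides of that of day 0 libraries. Of the 50-base sequences of Slc3a1, 24.8% also occur in Prepl, which overlaps it.

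Slc6a19 and Slc6a18 lie next to each other on chromosome 13 (73679745 to 73704865 and 73661752 to 73678023) and encode brush border carriers of neutral amino acids, B0AT1 and B0AT3. Slc6a19 had 76.5, 27.1 and 85.7 scaled CPM in knockout kidneys at day 5, against 276, 270.1, 327 and 402 at day 0. It had 51.9, 44.6 and 22.3 in wild type kidneys at day 5, against 338 and 517 at day 0. Among carriers called in both genotypes this was the largest fall: -2.47 ± 0.37 in knockout (limma adjusted p = 0.000105) and -3.47 ± 0.44 in wild type (adjusted p = 3.55e-05). Its neighbour Slc6a18 was at 657, 427 and 643 in knockout kidneys at day 5 and 714, 739, 752 and 767 at day 0. Its levels were 578, 588 and 426 in wild type kidneys at day 5 and 756 and 1210.0 at day 0. Slc6a18 fell in wild type (-0.86 ± 0.22, adjusted p = 0.0057), a call lost without replicate 2 of day 0 (-0.53). In knockout it was -0.39 ± 0.18 with adjusted p = 0.0864, although the groups did not overlap. With this pattern (Y-linked or Xist) as a covariate it was called in both genotypes (-0.77 and -0.96), and in knockout its adjusted p ran from 5.28e-06 to 1 over all alternatives.

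The proline carrier genes Slc6a20b and Slc6a20a (chromosome 9, 123590800 to 123632565 and 123634770 to 123678885) are also neighbours. Slc6a20b fell to 90.8, 54.1 and 91.8 scaled CPM in knockout kidneys at day 5, against 268.1, 284, 284 and 283 at day 0. It fell to 50.6, 71.2 and 45.5 in wild type kidneys at day 5, against 260.2 and 261 at day 0. The changes were -1.86 ± 0.18 and -2.24 ± 0.21 (limma adjusted p = 2.15e-06 in knockout and 3.06e-06 in wild type). Slc6a20a was not lower: its levels were 12.9, 23.0 and 12.2 in knockout kidneys at day 5 and 11.1, 12.5, 11.6 and 13.3 at day 0. In wild type kidneys they were 14.3, 15.2 and 19.0 at day 5 and 10.5 and 12.0 at day 0, and neither change was called (0.33 ± 0.19 and 0.49 ± 0.23, adjusted p = 0.161 and 0.0934). With the covariate both were called higher (0.59 and 0.56). Per kilobase, the level of Slc6a20a was 0.277 to 0.890 of that of Slc6a20b in knockout kidneys at day 5 and 0.0852 to 0.0985 at day 0, and 0.445 to 0.871 in wild type kidneys at day 5 and 0.0841 and 0.0964 at day 0. Of the 50-base sequences of Slc6a20a, 26.7% also occur in other genes, namely Slc6a20b and Gm17120. For Slc6a20b the share is 27.9%, most of it with Sacm1l and a smaller part with Slc6a20a. Only part of each share is therefore between the pair. Reads of either gene may be split or lost there, which may affect the ratio.

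Slc1a1, encoding the glutamate and aspartate carrier EAAT3, fell to 78.6, 83.9 and 98.4 scaled CPM in knockout kidneys at day 5, against 203 to 221 at day 0. It fell to 59.3, 69.6 and 64.9 in wild type kidneys at day 5, against 199 and 186 at day 0. The libraries of each group lay close together, and its adjusted p was the smallest of any member (limma, 1.27e-07 in knockout, -1.28 ± 0.08, and 2.37e-07 in wild type, -1.57 ± 0.10). Of its 50-base sequences, 31.0% also occur in 4430402I18Rik. Slc36a2, a proline and glycine carrier, held 0.121 to 2.98 scaled CPM in all libraries and was not called in either genotype. Markers of the proximal tubule moved with these carriers: 7 of 8 fell in knockout and 8 of 8 in wild type, with medians of -1.48 and -2.33. Their part in the result was not tested.

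Slc7a13, encoding AGT1, a partner of rBAT in the late proximal tubule, did not order by day alone. It had 3.00, 113 and 2.74 scaled CPM in knockout kidneys at day 5, against 1013, 1058, 974 and 936 at day 0. Wild type kidneys had 1.56, 3.53 and 119 at day 5, against 938 and 6.77 at day 0. Every library above 100 scaled CPM held Y-linked transcripts and every library under 10 held Xist. Within the Y-linked libraries it stood at 113 (knockout) and 119 (wild type) at day 5, against 936 to 1058 in the 5 day 0 libraries. The knockout change of -6.52 ± 1.70 (limma adjusted p = 0.00576) became -2.71 with the covariate. It was -3.12 in the Y-linked libraries alone, which hold a single knockout library at day 5. The adjusted p reached 0.0471 over the alternatives that gave one (DESeq2 gave none). In wild type the change was -3.05 ± 2.03 (limma adjusted p = 0.24), and it was called with the covariate (-2.10). It was -2.98 in the Y-linked libraries alone and -1.34 in the Xist libraries alone. Without replicate 2 of day 0 it was -6.56, while it was 0.45 without replicate 1 of day 0. Each fit by pattern or without a day 0 replicate leaves a single wild type library at day 0.

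Most basolateral carriers fell too, with 4 of 6 members lower and 1 higher in knockout (median -0.79), and 5 lower and 1 higher in wild type (median -1.44). Slc7a8, the light subunit LAT2 for neutral amino acids, had 118, 59.1 and 169.7 scaled CPM in knockout kidneys at day 5, against 188, 187, 209.6 and 218 at day 0. It had 99.1, 101 and 55.7 in wild type kidneys at day 5, against 218 and 404 at day 0. Slc7a7, the light subunit y+LAT1 that exports dibasic amino acids, had 74.8, 32.5 and 91.2 in knockout kidneys at day 5, against 115, 106, 124 and 113 at day 0. The lowest library of both genes in both genotypes at day 5 was the one with Y-linked transcripts. Wild type kidneys held 56.2, 59.0 and 28.1 scaled CPM of Slc7a7 at day 5, against 155 and 214 at day 0. The falls in wild type were -1.84 ± 0.38 for Slc7a8 and -1.99 ± 0.38 for Slc7a7 (limma adjusted p = 0.00144 and 0.000793). In knockout they were -0.92 ± 0.32 and -0.91 ± 0.31 (adjusted p = 0.0264 and 0.0267), and both calls were lost without replicate 2 of knockout day 5 (-0.50 and -0.47). With the covariate the changes of Slc7a8 and Slc7a7 were -1.59 and -1.56 in knockout, and -2.01 and -2.16 in wild type.

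Slc43a2, encoding the uniporter LAT4, fell in every day 5 library, to 105, 99.0 and 135 scaled CPM in knockout, against 243 to 283 at day 0. Wild type kidneys held 113, 84.7 and 97.7 at day 5, against 251 and 284 at day 0. The changes were -1.23 ± 0.12 and -1.44 ± 0.14 (limma adjusted p = 2.48e-06 in knockout and 4.24e-06 in wild type). Slc38a3, encoding the glutamine carrier SNAT3, which feeds renal ammonia production, had 27.4, 21.6 and 37.5 in knockout kidneys at day 5, against 42.9 to 47.6 at day 0. Slc38a3 had 29.1, 21.9 and 22.5 in wild type kidneys at day 5, against 45.4 and 97.7 at day 0. It fell by 0.68 ± 0.23 in knockout (adjusted p = 0.0226), a call lost without replicate 1 (-0.66) or 2 (-0.49) of knockout day 5, and by 1.44 ± 0.27 in wild type (adjusted p = 0.000777), or by 0.89 without replicate 2 of wild type day 0.

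Slc3a2, the heavy subunit 4F2hc that pairs with these light subunits, was not called in the knockout. It had 190.4, 191 and 218 scaled CPM in knockout kidneys at day 5, against 208.9, 232, 232 and 228 at day 0 (-0.17 ± 0.12, limma adjusted p = 0.256), and the groups overlapped. In wild type it fell to 164, 178 and 149 at day 5, against 270.0 and 414 at day 0 (-1.03 ± 0.15, adjusted p = 9.09e-05). The knockout change was called with the covariate (-0.35, adjusted p = 0.0153, and 0.0153 to 1 over all alternatives). The difference between these responses is given with the genotype comparisons.

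Slc7a6, encoding y+LAT2, a relative of y+LAT1 found in many cell types, was the basolateral member that rose. It had 22.4, 20.4 and 14.3 scaled CPM in knockout kidneys at day 5, against 4.78 to 6.73 at day 0. Slc7a6 had 18.7, 20.4 and 19.1 in wild type kidneys at day 5, against 6.78 and 7.49 at day 0. The rises were 1.59 ± 0.16 and 1.38 ± 0.19 (limma adjusted p = 2.89e-06 in knockout and 5.75e-05 in wild type). Per kilobase, Slc7a6 was 0.217, 0.455 and 0.114 of Slc7a7 in knockout kidneys at day 5, against 0.0329 to 0.0432 at day 0. In wild type the ratio was 0.242, 0.251 and 0.492 at day 5, against 0.0318 and 0.0254 at day 0.

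**Figure D2:**
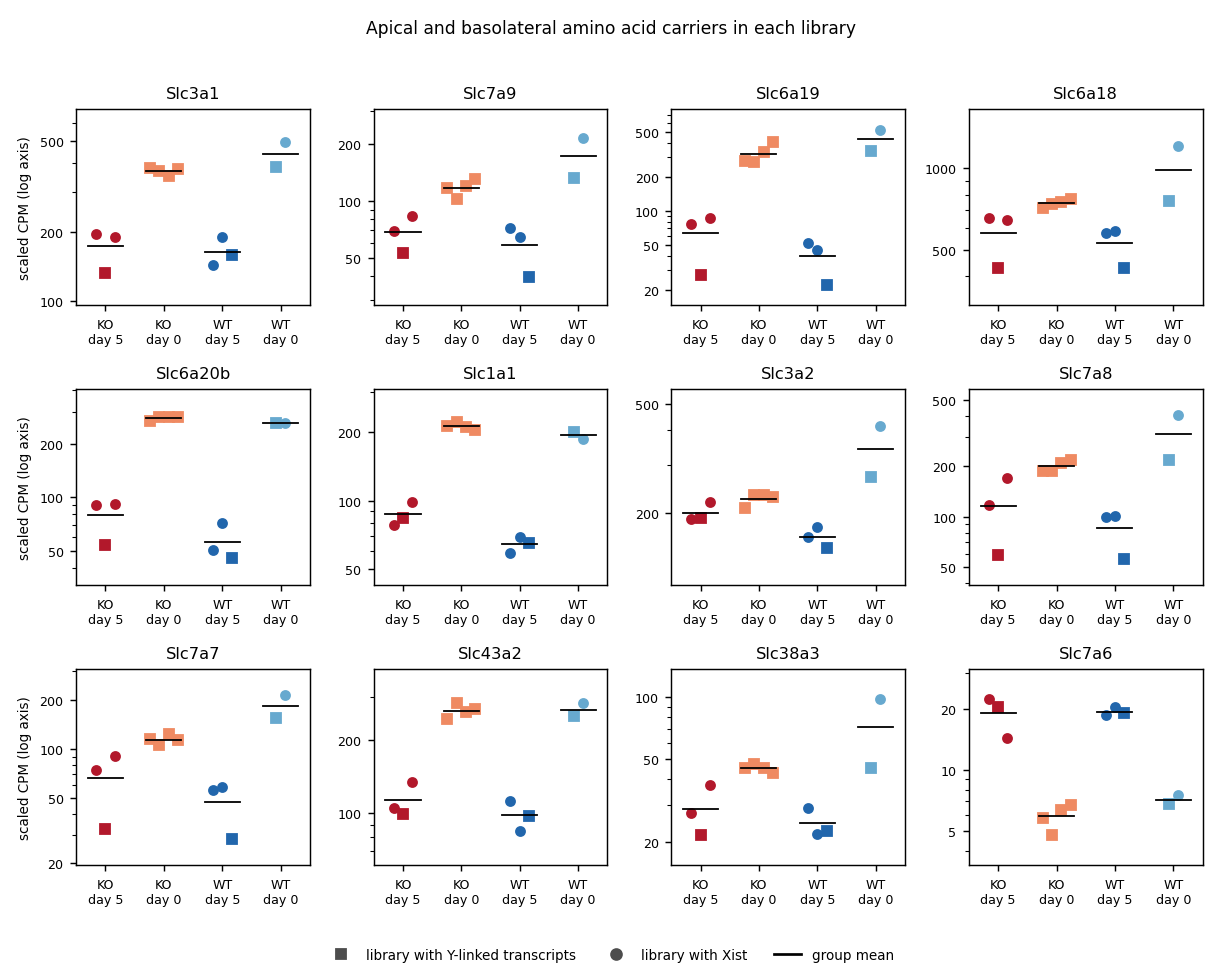
Scaled CPM (log axis) of 12 apical and basolateral carriers in each library, by genotype and day; squares are libraries with Y-linked transcripts, circles those with Xist, and lines the group means. Slc6a19 spans 22.3 to 85.7 at day 5 and 270.1 to 517 at day 0, whereas Slc7a6 is higher in every day 5 library than in any day 0 library.

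Most carriers that take up amino acids in dividing or stressed cells rose. Of the 8 members of this group 6 were higher and 0 lower in each genotype, with medians of 0.84 in knockout and 0.74 in wild type. Slc7a5, the light subunit LAT1 for large neutral amino acids, had 6.70, 10.6 and 10.3 scaled CPM in knockout kidneys at day 5, against 3.40, 4.02, 2.98 and 3.15 at day 0. Its levels were 14.3, 10.4 and 14.6 in wild type kidneys at day 5, against 4.66 and 4.17 at day 0. It rose by 1.29 ± 0.18 and 1.45 ± 0.22 (limma adjusted p = 6.4e-05 in knockout and 0.000134 in wild type). Every day 5 library was above every day 0 library, but the levels stayed low.

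Slc7a1, encoding CAT1, the general carrier of arginine and lysine, had 32.2, 30.6 and 28.8 scaled CPM in knockout kidneys at day 5, against 11.1 to 15.6 at day 0. It had 27.9, 42.98 and 38.7 in wild type kidneys at day 5, against 13.6 and 18.8 at day 0. Its rise was 1.14 ± 0.16 in knockout and 1.14 ± 0.19 in wild type (limma adjusted p = 6.37e-05 and 0.000319). Slc7a2, encoding CAT2, a cationic carrier known from activated macrophages and liver and counted here with the members without an assigned kidney role, had 31.2, 20.5 and 28.1 in knockout kidneys at day 5, against 5.13, 6.53, 7.45 and 10.4 at day 0. Wild type kidneys held 34.3, 29.3 and 27.9 of Slc7a2 at day 5, against 8.53 and 17.0 at day 0. Its rise of 1.80 ± 0.25 in knockout and 1.29 ± 0.29 in wild type (adjusted p = 4.99e-05 and 0.00289) was 0.81 in wild type without replicate 1 of day 0.

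The glutamine carrier genes Slc38a2, Slc38a1 and Slc1a5 rose as well, whereas Slc38a3 fell, as given above. Slc38a2, encoding SNAT2, had 247, 159.6 and 161 scaled CPM in knockout kidneys at day 5, against 73.7 to 105 at day 0. Slc38a2 had 164, 208 and 157 in wild type kidneys at day 5, against 99.0 and 101 at day 0, changes of 0.996 ± 0.16 in knockout and 0.80 ± 0.19 in wild type (limma adjusted p = 0.000207 and 0.00433). Slc38a1, encoding SNAT1, rose by 0.97 ± 0.12 and 0.87 ± 0.14 (adjusted p = 1.66e-05 and 0.00023), with 15.9 to 19.4 in knockout and 16.6 to 19.6 in wild type kidneys at day 5, against 7.80 to 9.46 in knockout and 8.90 and 10.6 in wild type at day 0. Slc1a5, encoding the glutamine exchanger ASCT2, had 94.8, 106 and 111 in knockout kidneys at day 5, against 69.2 to 74.3 at day 0, and 126, 117 and 127 in wild type kidneys at day 5, against 68.7 and 99.4 at day 0. The Slc1a5 rise of 0.53 ± 0.11 in knockout and 0.57 ± 0.13 in wild type (adjusted p = 0.000983 and 0.00245) was 0.31 in wild type, and not called, without replicate 1 of day 0.

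Slc7a3, encoding CAT3, rose by 0.72 ± 0.21 in knockout and 0.67 ± 0.25 in wild type (limma adjusted p = 0.0116 and 0.0432) at levels under 2.3 scaled CPM. The rise was not called with the covariate in knockout (0.62). In wild type the call was lost in 17 of 27 alternatives, among them edgeR (0.91), DESeq2 (0.90) and limma-voom (0.92). Others were the fits without replicate 1 (0.43) of day 0, replicates 1 (0.56) or 3 (0.69) of day 5, or some knockout libraries. Slc1a4, encoding the neutral exchanger ASCT1, was not called in either genotype (-0.42 ± 0.23 and -0.23 ± 0.27), nor was the glycine carrier gene Slc6a9 (-0.23 ± 0.34 and 0.51 ± 0.41). Markers of other cells rose with this group: 6 of 8 leukocyte markers in knockout and 7 of 8 in wild type (medians 2.20 and 2.06), and 7 of 7 fibroblast markers in both (medians 2.96 and 2.87). Leukocyte markers summed to 595 to 792 scaled CPM in knockout kidneys at day 5 and 138 to 169 at day 0, and to 534 to 622 in wild type kidneys at day 5 and 137 and 138 at day 0. Fibroblast markers summed to 2925 to 4213 in knockout kidneys at day 5 and 399.3 to 628.5 at day 0, and to 3037 to 4771 in wild type kidneys at day 5 and 480.1 and 599 at day 0. Their part in the result was not tested.

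**Figure D3:**
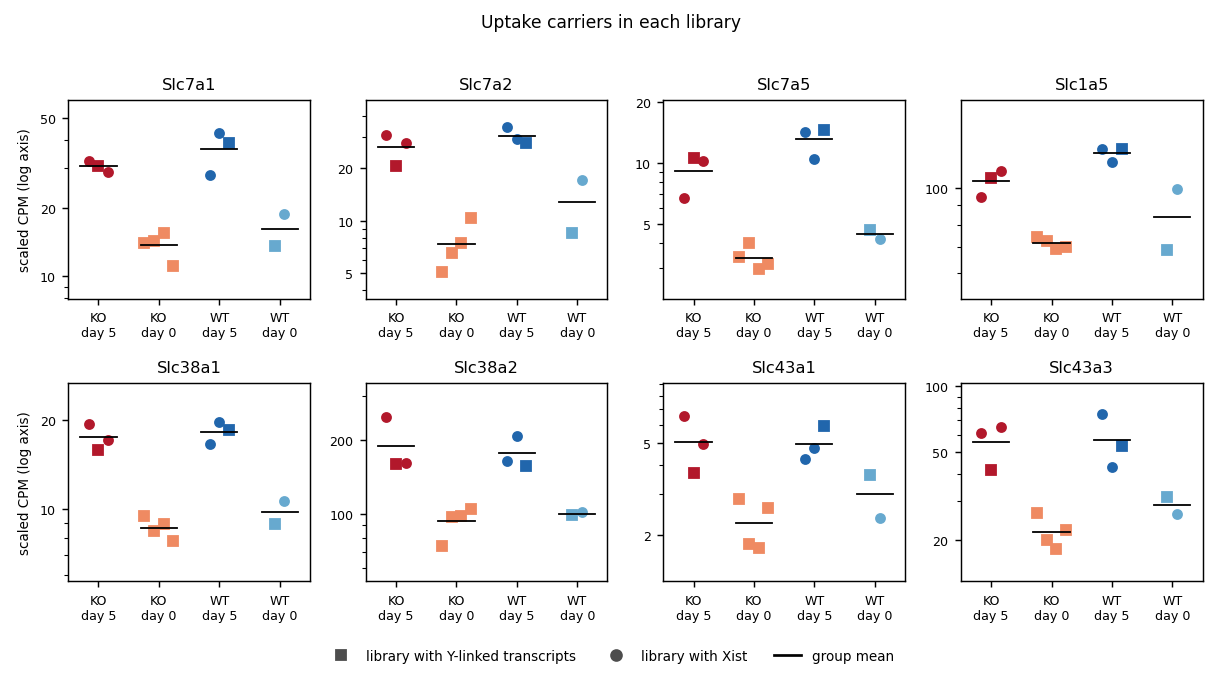
Scaled CPM (log axis) of Slc7a1, Slc7a2, Slc7a5, Slc1a5, Slc38a1, Slc38a2, Slc43a1 and Slc43a3, chosen after their values were seen, in each library, by genotype and day, with squares for libraries with Y-linked transcripts, circles for those with Xist and lines for the group means. In these 8 genes every day 5 library lies above every day 0 library of its genotype.

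The light subunits Slc7a5 and Slc7a8, which share the heavy subunit 4F2hc, moved in opposite directions. Per kilobase, the level of Slc7a5 was 0.0767, 0.241 and 0.0816 of that of Slc7a8 in knockout kidneys at day 5, against 0.0192 to 0.0291 at day 0. In wild type kidneys the ratio was 0.195, 0.140 and 0.352 at day 5, against 0.0289 and 0.0139 at day 0. Slc7a8 remained the more abundant of both in every library. These ratios, like those of the other pairs, were chosen after the values were seen and carry no test.

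**Figure D4:**
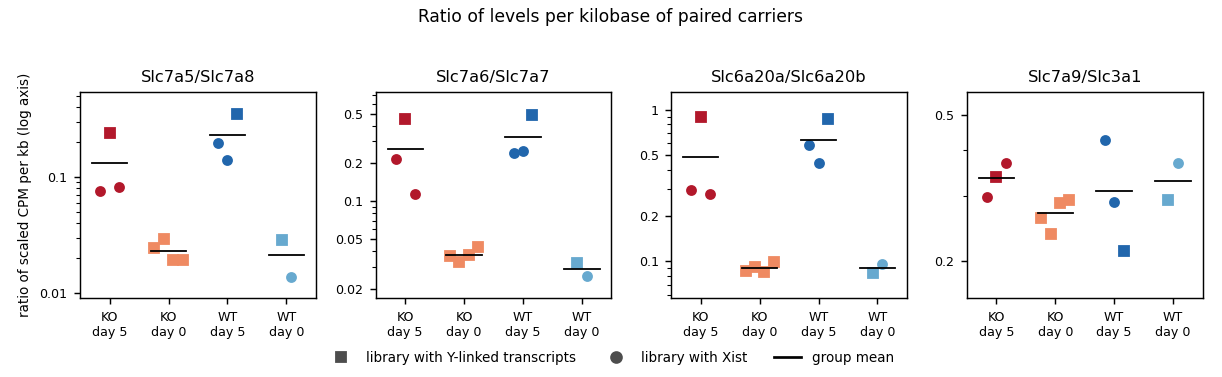
Ratio of levels per kilobase (log axis) for 4 pairs of carriers in each library, with squares for libraries with Y-linked transcripts, circles for those with Xist and lines for the group means. The Slc7a6 to Slc7a7 ratio is 0.114 to 0.492 at day 5 and 0.0254 to 0.0432 at day 0. That of Slc7a9 to Slc3a1 overlaps between days in wild type and is higher in every day 5 library in knockout.

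Among the carriers of osmolytes and creatine 2 of 4 members were lower and 0 higher in each genotype. That is 50%, where 54.8% of all genes were called in knockout and 47.1% in wild type. Slc6a8, the creatine carrier, had 165, 192 and 195 scaled CPM in knockout kidneys at day 5, against 258 to 304 at day 0. It had 175, 169 and 165 in wild type kidneys at day 5, against 301 and 296 at day 0 (-0.62 ± 0.08 in knockout and -0.82 ± 0.09 in wild type, limma adjusted p = 2.55e-05 and 1.49e-05). Slc6a13, encoding GAT2, a carrier of GABA and taurine, fell by 1.16 ± 0.15 in knockout and 1.35 ± 0.17 in wild type (adjusted p = 2.5e-05 and 3.89e-05), with 54.7 to 94.8 at day 5 and 153 to 192 at day 0. The taurine carrier gene Slc6a6 was not called: it had 376, 408 and 324 in knockout kidneys at day 5 and 355, 374, 385 and 382 at day 0. Slc6a6 had 387, 444 and 428 in wild type kidneys at day 5 and 345 and 427 at day 0. Per kilobase Slc6a6 ranked 4 of the 48 members in knockout kidneys at day 5 and 8 at day 0, and 3 in wild type kidneys at day 5 and 12 at day 0. Slc6a12, encoding the betaine carrier BGT1, had 1.27 to 9.30 in all libraries and was not called, the value of 9.30 being that of replicate 1 of knockout day 5.

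Of the lysosomal carriers, Slc36a1, which exports small amino acids from lysosomes (PAT1), fell to 71.6, 70.8 and 74.2 scaled CPM in knockout kidneys at day 5, against 114, 168, 169 and 155 at day 0. It fell to 72.2, 60.7 and 62.1 in wild type kidneys at day 5, against 146 and 133 at day 0 (-1.05 ± 0.12 in knockout and -1.10 ± 0.15 in wild type, limma adjusted p = 1.45e-05 and 5.71e-05). Slc38a9, the lysosomal arginine sensor upstream of mTORC1, stood at 20.02 to 24.2 in all 12 libraries and was not called, with changes of 0.14 ± 0.08 and -0.01 ± 0.10. Slc38a7 was not called either (-0.03 ± 0.12 and -0.08 ± 0.14). With library size alone the changes of Slc38a7 in knockout and Slc38a9 in wild type were called higher (0.42 and 0.40). Slc36a4 rose by 0.35 ± 0.11 in knockout (adjusted p = 0.0166), a call lost with the covariate (0.25) and without replicate 1 of knockout day 5 (0.27) or replicates 2 (0.29) or 3 (0.32) of knockout day 0. In wild type its change was 0.30 ± 0.13.

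Outside these groups, the tested members without an assigned kidney role included 7 higher and 1 lower of 10 in knockout, and 3 higher and 1 lower in wild type. Slc43a3, a carrier of purine nucleobases, had 61.1, 41.5 and 65.5 scaled CPM in knockout kidneys at day 5, against 18.1 to 26.4 at day 0. Slc43a3 had 74.6, 42.8 and 53.7 in wild type kidneys at day 5, against 31.4 and 26.2 at day 0 (1.34 ± 0.20 in knockout and 0.94 ± 0.24 in wild type, limma adjusted p = 9.33e-05 and 0.00533). Slc43a1, encoding LAT3, rose by 1.001 ± 0.23 in knockout (adjusted p = 0.00239), and in wild type, where its change was 0.66 ± 0.27, it had 4.25, 4.74 and 5.92 at day 5 and 3.63 and 2.36 at day 0. Slc38a10 fell by 0.31 ± 0.08 and 0.39 ± 0.09 (adjusted p = 0.00463 in knockout and 0.0038 in wild type), and with library size alone it was 0.14 and 0.03. Slc38a6 rose by 0.47 ± 0.10 in knockout, but 35.5% of its 50-base sequences also occur in other genes, among them Noct. Slc7a4 rose by 0.77 ± 0.18 in wild type (adjusted p = 0.00376), while its change in knockout was 0.36 ± 0.15 (adjusted p = 0.0603).

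The rises of Slc38a11 and Slc7a15 in knockout rested on few reads. Slc38a11 had 2.20, 0.936 and 0.465 scaled CPM in knockout kidneys at day 5, against 0.247, 0, 0.454 and 0.595 at day 0 (0.97 ± 0.34, limma adjusted p = 0.0273). Its groups overlapped, and the rise was 0.57 and not called without replicate 1 of knockout day 5. Slc7a15 was under 1 scaled CPM in every library and its groups in knockout overlapped (0.56 ± 0.22, adjusted p = 0.0463). Its call was lost in 17 of 23 alternatives, among them DESeq2, RLE factors, no filter and most fits that left out a single library, where it was 0.34 to 0.76. Both calls were lost with the sex-chromosome transcript covariate. Slc38a4, a carrier known from liver, was not called (0.59 ± 0.34 in knockout and 0.22 ± 0.41 in wild type).

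Members listed together under neurotransmitter transport, not all of them neuronal carriers, were mostly near the limit of detection. Of the 11 members in this group 5 were tested, with 1 higher and 2 lower in knockout and 0 higher and 2 lower in wild type. The called shares were 60% and 40%, where 54.8% and 47.1% of all tested genes were called. Slc6a15, encoding the neutral amino acid carrier B0AT2, had 77.3, 83.0 and 51.0 scaled CPM in knockout kidneys at day 5 and 41.5 to 57.2 at day 0. Its groups overlapped, and the rise of 0.50 ± 0.19 (limma adjusted p = 0.0459) lost its call with RLE factors (0.45), with no filter (0.48) and without any of 8 of the 12 libraries. Slc6a17, a vesicular carrier of neutral amino acids, fell by 0.49 ± 0.17 in knockout and 0.63 ± 0.21 in wild type (adjusted p = 0.0292 and 0.023). That call was lost in knockout without replicate 1 (-0.45) or 2 (-0.33) of day 5 or replicate 1 (-0.45) of day 0, and in wild type without replicate 1 (-0.59) of day 5 or replicate 2 (-0.30) of day 0, while it was -0.97 without replicate 1 of wild type day 0. Slc6a4, the serotonin carrier, was lower in wild type (-1.01 ± 0.37, adjusted p = 0.0412) with 3.26, 5.44 and 3.72 at day 5 and 5.33 and 13.9 at day 0. The call was lost in 11 of 27 alternatives, among them the fit without replicate 2 of wild type day 0 (-0.36), those without replicate 1 (-0.87) or 3 (-0.95) of wild type day 5, the unfiltered fit (-1.02) and the Y-linked libraries alone (-0.46). Without replicate 1 of wild type day 0 it was -1.67. Slc6a7, the proline carrier of neurons, fell by 0.65 ± 0.23 in knockout (adjusted p = 0.0314) at levels under 1 scaled CPM, and the call was lost without replicate 1 (-0.51) or 2 (-0.64) of knockout day 5 or replicate 3 (-0.66) of knockout day 0. Slc6a14 was under 1 scaled CPM and not called in either genotype (-0.45 ± 0.26 and -0.40 ± 0.31). Slc1a2 and Slc1a3, glutamate carriers known from glia, were not called in either genotype (0.69 ± 0.37 and 0.80 ± 0.44 for Slc1a2, 0.14 ± 0.29 and 0.08 ± 0.34 for Slc1a3).

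The 14 members that were not tested held 2 to 55 reads in all 12 libraries together. They include the glutamate carrier genes Slc1a6 (55 reads) and Slc1a7 (36), Slc7a10 (48), the noradrenaline carrier gene Slc6a2 (46, of which 30 in a single library), Slc6a11 (18), Slc6a16 (21), Slc7a14 (13), the dopamine carrier gene Slc6a3 (9), Slc38a5 (7), the glycine carrier gene Slc6a5 (6), Slc36a3 (3), and Slc38a8 and Slc6a21 (2 each). At this depth their changes were not detectable.

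Transporter levels also split by the sex-chromosome transcript pattern. Between Y-linked and Xist libraries, with group in the model, 11 of 48 members differed (22.9%, where 7.94% of all tested genes did), 4 higher and 7 lower in the Y-linked libraries. In 4 of the 48 members (8.33%) the libraries of both patterns did not overlap, where 3.81% of all genes did not. Slc7a13 was higher in Y-linked libraries by 5.71 ± 0.27 (113 to 1058 scaled CPM in Y-linked and 1.56 to 6.77 in Xist libraries), Slc6a9 by 1.08 ± 0.13 (9.46 to 17.9 and 4.78 to 8.27) and Slc1a4 by 0.57 ± 0.15 (27.3 to 49.0 and 18.9 to 26.2). Slc7a12, encoding Asc-2, a carrier of small neutral amino acids, was lower in Y-linked libraries by 3.93 ± 0.55 (0.835 to 11.9 in Y-linked and 43.9 to 248 in Xist libraries). The largest and smallest limma adjusted p among these 4 were 0.0348 (Slc1a4) and 4.48e-08 (Slc7a13). Of the 50-base sequences of Slc6a9, 26.3% also occur in other genes, namely Ccdc24 and Gm17114.

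Apical and basolateral carriers that fell with obstruction were also among the 7 lower in Y-linked libraries: Slc6a19 by -1.13 ± 0.15, Slc7a8 by -1.003 ± 0.11, Slc7a7 by -0.98 ± 0.12, Slc7a9 by -0.66 ± 0.09, Slc6a18 by -0.57 ± 0.07 and Slc38a3 by -0.56 ± 0.15. With the pattern as a covariate, the obstruction changes in knockout were -3.23 for Slc6a19, -1.235 for Slc7a9 and -1.05 for Slc38a3. In wild type they were -3.66, -1.67 and -1.53. All 4 knockout libraries at day 0 were Y-linked, and with the pattern as a covariate the knockout calls were 15 members higher and 19 lower (52.3% of all genes called), and in wild type 13 were higher and 18 lower (51.7% of all genes called). Slc6a9, which was not called without the covariate, was then higher in both genotypes (0.49 in knockout and 0.69 in wild type). Slc1a2 was then higher in both as well (1.44 and 0.99); its highest libraries were the Y-linked ones at day 5, with 21.6 in knockout and 17.1 in wild type, where the other 10 libraries had 4.41 to 7.61.

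In Slc7a12 the pattern changed the call. Its knockout levels were 116, 4.93 and 87.2 scaled CPM at day 5, against 4.39, 0.835, 1.94 and 6.31 at day 0. The rise of 3.56 ± 1.29 (limma adjusted p = 0.0325) was 0.94 and not called with the covariate, and 0.75 in the Y-linked libraries alone, with an adjusted p of 0.00143 to 0.474 over all alternatives. It was also lost with limma-voom, with no filter, without replicate 1 (2.75) or 3 (2.96) of knockout day 5 and without replicate 2 (3.12) or 3 (3.41) of knockout day 0. Wild type kidneys held 43.9, 97.7 and 11.9 at day 5, against 4.72 and 248 at day 0, a change of 0.07 ± 1.54. In the Xist libraries alone, which hold a single wild type library at day 0, that change was -1.90.

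**Figure D5:**
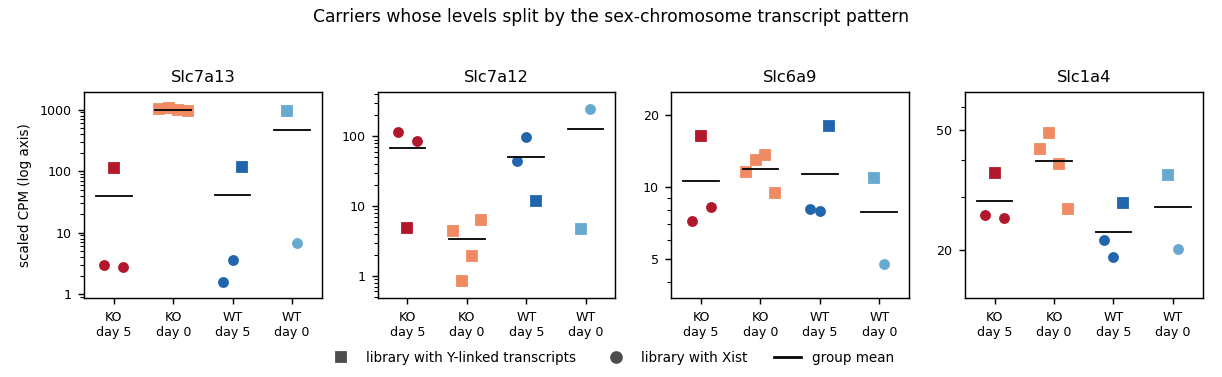
Scaled CPM (log axis) of Slc7a13, Slc7a12, Slc6a9 and Slc1a4 in each library, by genotype and day, with squares for the 7 libraries with Y-linked transcripts, circles for the 5 with Xist and lines for the group means. In each panel squares and circles do not overlap, and the group mean depends on how many of each the group holds.

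Between genotypes, limma with all libraries called no member in any comparison. At day 5, limma called 0 of 48 members (0% of all genes), with 5 at an unadjusted p under 0.05 (5.67% of all genes), and edgeR and limma-voom also called 0. DESeq2 called 1 (0.282% of all genes), Slc1a1, which was higher in knockout (0.42 ± 0.09 in limma, adjusted p = 0.605, and 0.01 to 1 over all alternatives). The Slc1a1 levels of 78.6, 83.9 and 98.4 scaled CPM in knockout lay above those of 59.3, 69.6 and 64.9 in wild type. Across all genes 5.72% were wholly above and 4.21% wholly below in knockout at day 5, and among the members 2 and 2.

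At day 0, limma, edgeR and limma-voom called 0 members (0.0166% of all genes by limma), with 4 at an unadjusted p under 0.05 (15% of all genes). Across all genes 12.9% were wholly above and 12.4% wholly below in knockout at day 0, and among the members 4 and 7. DESeq2 called 2 (2.04% of all genes), both lower in knockout: Slc3a2 and Slc7a12. Slc3a2 was at 208.9 to 232 in knockout against 270.0 and 414 in wild type (-0.57 ± 0.14, limma adjusted p = 0.126, and 0.00307 to 1 over all alternatives). Without replicate 1 of wild type day 0, which leaves a single wild type library assumed to vary like the other groups, 5 members were lower in knockout: Slc3a2 (-0.87), Slc38a3 (-1.09), Slc1a5 (-0.46), Slc7a2 (-1.19) and Slc7a12 (-6.27). In that fit 3.37% of all genes were called, 421 higher and 217 lower. The remaining wild type library holds Xist and all 4 knockout libraries hold Y-linked transcripts, so genotype and pattern cannot be told apart there.

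For the difference between the genotypes' responses to obstruction, limma, edgeR and limma-voom called 0 members (0.00553% of all genes by limma), with 5 at an unadjusted p under 0.05 (7.59% of all genes). DESeq2 called 1 (0.26% of all genes), Slc3a2, whose fall was smaller in knockout by 0.86 ± 0.19 (limma adjusted p = 0.402, and 0.00727 to 1 over all alternatives). It was also called without replicate 1 of wild type day 0 (1.15). A p above the threshold does not show that the genotypes respond alike.

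Genes that work with the transporters were also measured. Of 12 listed partners of amino acid recovery, such as peptidases and mitochondrial carriers, 11 were in the deposited table by symbol and were tested. Of these 11, 9 were lower and 0 higher in knockout (median -1.22), and 10 lower and 0 higher in wild type (median -1.37). Cltrn, encoding collectrin, which brings B0AT1 to the brush border, fell by 1.88 ± 0.13 in knockout and 2.07 ± 0.16 in wild type (limma adjusted p = 1.8e-07 and 5.89e-07). The mitochondrial ornithine carrier gene Slc25a15 changed by -1.47 ± 0.07 and -1.84 ± 0.08, the aspartate-glutamate carrier gene Slc25a13 by -1.22 ± 0.07 and -1.46 ± 0.08, and Ggt1, a brush border enzyme of glutathione breakdown, by -1.99 ± 0.16 and -1.76 ± 0.19.

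Of 15 genes of the amino acid response, the programme driven by ATF4 when amino acids run short, 11 were higher and 1 lower in knockout (median 0.78), and 7 higher and 1 lower in wild type (median 0.37). Calls made up 80% of the list in knockout and 53.3% in wild type, where 54.8% and 47.1% of all tested genes were called. The proline synthesis gene Aldh18a1 rose by 1.99 ± 0.16 in knockout and 1.88 ± 0.19 in wild type, Stc2, a secreted glycoprotein gene, by 1.70 ± 0.18 and 1.59 ± 0.22, and Pck2, the mitochondrial carboxykinase gene, by 1.08 ± 0.12 and 0.89 ± 0.14. Shmt2, the mitochondrial serine hydroxymethyltransferase gene, was the member of the list that fell, by 1.99 ± 0.11 and 1.76 ± 0.13 (limma adjusted p = 5.34e-08 in knockout and 6.16e-07 in wild type).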

How the data were processed

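Messenger RNA libraries of 12 left kidneys were sequenced. The authors deposited 1 table of CPM (reads scaled to library depth) for all samples; per the submitters' processing notes STAR, SAMtools and HTSeq were used with GRCm38.p6, and their versions, the annotation release and the strand setting are not given in the sources used here. All 665652 deposited CPM values were whole reads within 0.001 when multiplied back by depth (100%), and libraries held 16567256 to 19398882 reads. No value column was left unmapped.

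Members were taken by symbol, and 1 untested member is not reported here. The members and lists were chosen with earlier results of these data known. CPM were divided by TMM factors, 0.5 CPM was added, and log2 values of the 18093 genes passing the edgeR filter (minimum count 10, total 15) were fitted with limma 3.58.1 (R 4.3.3), 4 groups in 1 fit, with Benjamini-Hochberg adjustment at 0.05. A fold change on this scale understates the change of low genes. Obstruction was tested in each genotype, genotype on each day, and their interaction. Library values are given for the most abundant members of each role, the 8 largest rises and falls, and members whose call moved between genotypes or with the sex-chromosome transcript pattern. Library pattern was set by summed Y-linked transcripts above 10 CPM.

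Alternatives were edgeR 4.0.16 and DESeq2 1.42.0 on recovered reads, limma-voom, RLE factors, library size, other filters and added CPM, the pattern as covariate, libraries of 1 pattern, the compared groups alone, a threshold of 1.5-fold, and leaving out each library. The edgeR fit with the covariate was added after the data were seen. Scripts were tested on simulated data. Levels per kilobase use GENCODE M21 exon lengths. In 11 members over 5% of 50-base sequences also occur in other genes, so reads may be split or lost there. Promoters came from the RefSeq table.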

Additional observations from a re-analysis of the deposited data

Results flagged for a closer look

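Among the 48 tested members in the 4 knockout libraries at day 0, a single library stood apart from the other 3 in 2 members, where chance gives about 1 in 20. Slc6a20b had 268.1 scaled CPM in replicate 1, where the others had 283 to 284.5, a gap of 0.913 of the range and past the Dixon limit for 4 samples. Slc3a2 had 208.9 scaled CPM in the same replicate, where the others had 228.5 to 232.1, a gap of 0.842 of the range. Both gaps are small beside the differences between days in Slc6a20b and between the wild type libraries in Slc3a2.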

How the results depend on the processing

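No paired analysis was possible because the labels give no replicate numbers shared between groups. Of the 32 member calls in knockout, 22 held without every single library, 32 with edgeR, 31 with limma-voom and 27 with the pattern covariate; of the 27 in wild type the numbers were 22, 26, 26 and 27. With library size only, 8 members were lower in knockout and the median was 0.48; in wild type 17 were higher and the median was 0.32. A threshold of 1.5-fold left 14 calls in knockout, 6 higher and 8 lower (17.2% of all genes), and 15 in wild type, 3 of them higher (16.6%). The knockout median was 0.15 with a filter of 1 CPM in 2 libraries and 0.14 in the compared groups alone, and the wild type median was -0.27 in the Xist libraries alone. DESeq2 called 1 member higher at day 5, 2 lower at day 0 and 1 higher in the interaction (0.282%, 2.04% and 0.26% of all genes), where limma called 0 with all libraries. Leaving out single libraries gave 24 to 31 calls in knockout (11 to 15 higher, 11 to 17 lower; median -0.0197 to 0.11) and 24 to 29 in wild type (9 to 12 higher, 15 to 17 lower; median -0.21 to -0.0215 over the 48 members, or 0.0325 over the 50 tested without replicate 2 of wild type day 0). Between genotypes it gave 0 at day 5, 0 to 5 at day 0, all lower, and 0 to 1 in the interaction, higher; the highest values came without replicate 1 of wild type day 0. Reversals were Slc6a9 in knockout with the covariate (0.49, and 0.50 in edgeR), Slc7a12 in wild type in the Xist libraries (-1.90) and, with library size only, Slc38a7 (0.42), Slc6a6 (0.43) and Slc38a10 (0.14) in knockout and Slc38a9 (0.40) and Slc38a10 (0.0302) in wild type. The cause was not tested, other than that library size alone shifts the median of all genes. Wild type day 0 has 2 libraries, which limits every genotype comparison.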

Other observations

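Markers of other nephron segments and of vessels were measured beside the transporters. Of 8 markers of the loop of Henle, distal tubule and collecting duct, 6 were lower and 0 higher in knockout (median -0.81) and 6 lower and 0 higher in wild type (median -1.43). Of 6 endothelial markers, 1 was lower and 5 were not called in each genotype. Per kilobase, the order of the transporters differed between days: Slc6a19 ranked 16 in knockout kidneys at day 5 and 5 at day 0. In wild type kidneys Slc6a19 ranked 18 at day 5 and 5 at day 0, while Slc6a18 ranked 1 on both days.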
